A study of Mus musculus with 9 samples.

Results

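The comparison described here set gastrocnemius, a calf muscle, of hDMD x mdx mice against that of mdx mice, and its members were the 4 arrays of the 9 in the study whose titles give those genotypes. The mdx mice carry a mutation in the mouse Dmd gene, the hDMD x mdx mice carry the same mutation together with the full-length human DMD gene (hDMD), and mouse utrophin was intact in both groups. The 2 mdx mice were males of 15 and 13 weeks and the 2 hDMD x mdx mice were males of 24 and 10 weeks. RNA of each mouse was hybridised to its own Affymetrix U74Av2 array. The other 5 arrays came from 2 wild-type C57Bl/DBA2/129OLA-Ev mice of 7 weeks, 1 female and 1 male, from 1 male hDMD mouse of 11 weeks, from 1 male mdx x utrn-/- mouse of 5 weeks, which also lacks utrophin, and from 1 male hDMD x mdx x utrn-/- mouse of 9 weeks. The labels name neither the strain of the mdx mice nor the copy number and founder line of the human gene. The comparison asks how muscle RNA of dystrophin-deficient mice differs when the human gene is present.

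Dystrophin links the actin cytoskeleton of a muscle fibre to the extracellular matrix through a complex of membrane proteins. Fibres of mdx mice lack it, are damaged by contraction and go through repeated rounds of death and repair, in which macrophages clear debris, fibroblasts lay down matrix, and muscle precursor cells fuse into new fibres that pass through an embryonic programme of contractile and receptor genes. Utrophin is a related protein that can take part of the place of dystrophin at the membrane.

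The arrays differed in brightness. The median of the 9 hybridisation controls split the 9 arrays into 3 bright and 6 dim ones, 6.19-fold apart, and each compared group held 1 of each kind. The bright pair set the 24-week hDMD x mdx mouse against the 13-week mdx mouse, and the dim pair set the 10-week hDMD x mdx mouse against the 15-week mdx mouse, so the mouse with the human gene was the older one in the bright pair and the younger one in the dim pair. The ratio of 3' to 5' actin probe sets, a measure of RNA and labelling quality, was 0.894 and 1.87 in the mdx arrays and 0.669 and 1.29 in the hDMD x mdx arrays, dim array first. All levels below are quantile normalised intensities as log2(value + 16), a scale with its floor at 4, and they are given with the dim array before the bright one. Differences are hDMD x mdx minus mdx on that scale with their standard error (SE), n = 2 per group. They understate the change of dim genes. All 12 genes of the skeletal muscle identity list (such as Acta1, Ckm and Mylpf) passed the filter on dim probe sets, with summed intensities of 28683 and 26389 in mdx and 28838 and 25330 in hDMD x mdx.

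No probe set of 7453 passed limma's test at an adjusted p of 0.05 in the fit over all 9 arrays with brightness as a block (0% called, smallest adjusted p = 0.199). At an unadjusted p under 0.05 there were 543 probe sets (7.29%), of which 311 were lower (4.17%) and 232 higher (3.11%) in hDMD x mdx, where 373 are expected by chance. With the deposited intensities left unnormalised, 14 were lower and 138 higher at that p, and the median difference of all probe sets was 0.51 instead of 0.02. A fit on the 4 compared arrays alone, with the block and 1 residual degree of freedom, called 9 probe sets (0.121%). Of these, 8 were lower in hDMD x mdx (0.107%), for Lgals3, Myl4 (2 probe sets), Ctss, Timp1, Mmp12, Chrna1 and a probe set with no gene name, and 1 was higher (0.0134%), for Ighm. The fit without the block called none and had 215 probe sets at an unadjusted p under 0.05 (2.88%), 148 lower (1.99%) and 67 higher (0.899%). Leaving out wild-type 1 or wild-type 2, which share the estimate of spread, gave 9 and 10 calls. Leaving out the dim array of either compared group gave no call and 187 (hDMD x mdx) or 211 (mdx) probe sets at that p. An exact permutation test of 2 against 2 mice cannot give a two-sided p below 0.333.

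**Figure D1:**
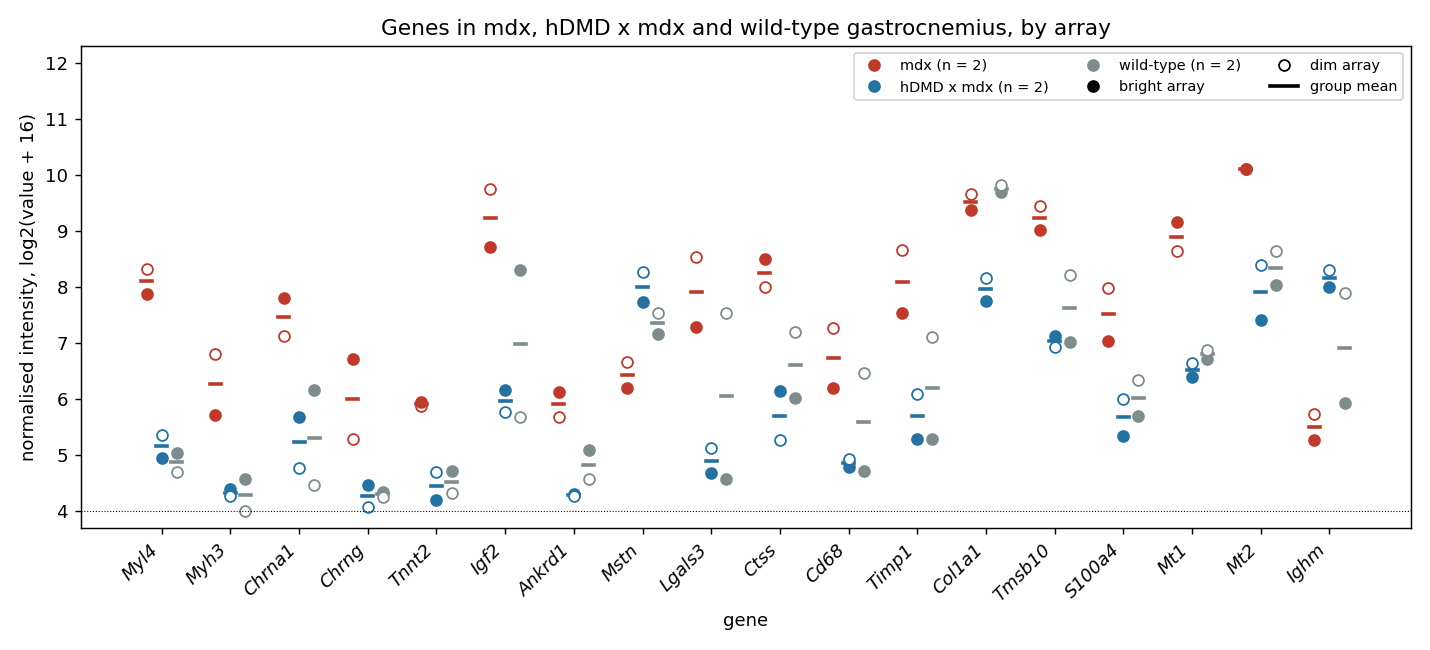
Normalised intensity (vertical axis, log2(value + 16)) of 18 genes (horizontal axis) in each mdx (red), hDMD x mdx (blue) and wild-type (grey) array, with filled points for bright arrays, open points for dim arrays, bars for group means (n = 2) and a dotted line at the floor of 4. For 16 of the genes both mdx points lie above both hDMD x mdx points, and for Mstn and Ighm both lie below. The genes were picked with their values known, so this separation follows from the choice. Over all 5666 genes, 13% were lower and 14.3% higher in hDMD x mdx without overlap. Myl4 and Ighm are shown by their probe set of smallest p.

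Genes of regenerating and developing muscle were lower with the human gene. Of the 23 genes of that list that were kept of 25 on the array, 22 were lower in hDMD x mdx, 16 of them with no overlap between the groups, where 13% of all 5666 genes were lower without overlap. An unadjusted p under 0.05 was reached by 14 genes, all lower, where 4.17% of all genes were. The median difference of the list was -0.91, against 0.03 over all genes, and it was -1.17 within the bright pair and -0.99 within the dim pair.

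Among the contractile genes, Myl4, an atrial and embryonic myosin light chain, read 8.33 and 7.88 in mdx and 5.37 and 4.96 in hDMD x mdx. Both mdx arrays were far above both hDMD x mdx arrays, which were near the wild-type readings of 4.70 and 5.04. The difference was -2.94 ± 0.29 (SE, 7.67-fold, adjusted p = 0.199), -2.96 within the dim pair and -2.92 within the bright pair. A second probe set, which stood for Myl4 in the list, differed by -2.45 ± 0.31. Myh3, the embryonic myosin heavy chain, read 6.81 and 5.72 in mdx and 4.27 and 4.40 in hDMD x mdx, with the 15-week mdx mouse the highest and both hDMD x mdx mice close to the floor, as were the wild-type readings of 4.0 and 4.58. Its difference was -1.93 ± 0.42 (SE, adjusted p = 0.491). Probe sets for the neonatal heavy chain Myh8 were divided, 1 at -1.11 ± 0.34 and the other at -0.0022 ± 0.40 with opposite signs in the pairs. Tnnt2, the cardiac troponin T that is also made in immature skeletal fibres, read 5.89 and 5.94 in mdx and 4.71 and 4.20 in hDMD x mdx, with all hDMD x mdx readings below the mdx ones, a difference of -1.46 ± 0.29. Actc1, the cardiac actin, was lower by a smaller amount, -0.80 ± 0.31, and a second probe set overlapped between the groups at -0.86 ± 0.36. Unlike Myl4 and Myh3, Actc1 read 10.46 and 10.63 in wild-type, between the mdx readings of 10.92 and 10.35 and above those of hDMD x mdx. Without utrophin Actc1 went the other way, from 9.55 in the mdx x utrn-/- mouse to 10.19 in the hDMD x mdx x utrn-/- mouse.

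The acetylcholine receptor of the neuromuscular junction is built of several subunits, and immature or denervated fibres make the gamma subunit and spread receptors over their surface. Chrna1, the alpha subunit, read 7.13 and 7.81 in mdx and 4.77 and 5.69 in hDMD x mdx. The groups did not overlap, both bright arrays were above their dim partners, and the difference was -2.24 ± 0.31 (SE, adjusted p = 0.249), -2.36 in the dim and -2.12 in the bright pair. Chrng, the gamma subunit, read 5.30 and 6.71 in mdx and 4.08 and 4.48 in hDMD x mdx, a difference of -1.72 ± 0.36 with the hDMD x mdx and wild-type arrays (4.26 and 4.35) all near the floor. A second probe set for Chrng overlapped between the groups and differed by -0.82 ± 0.32. Chrnb1, the beta subunit, differed by -0.82 ± 0.33 without overlap. Chrnd, the delta subunit, read 5.09 and 4.49 in mdx and 5.38 and 4.0 in hDMD x mdx, and the groups overlapped.

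Chrna1, Chrng and Tnnt2 are shown by sequence because they were the only 3 of the 20 kept genes of the regeneration list with a RefSeq promoter entry that held the letters CAGCTG at least 2 times in the 250 bases before a start. CAGCTG is an E-box, the type of site that myogenic factors such as MyoD and myogenin can bind, and it reads the same on both strands. The windows lie at chr2:73580339-73580588 (minus strand) for Chrna1, chr1:87205561-87205810 (plus strand) for Chrng and chr1:135836084-135836333 (plus strand, 1 of 2 annotated starts) for Tnnt2, all from RefSeq on GRCm38.p6. They run from 5′ to 3′ towards the start and the capitals mark CAGCTG:
Chrna1: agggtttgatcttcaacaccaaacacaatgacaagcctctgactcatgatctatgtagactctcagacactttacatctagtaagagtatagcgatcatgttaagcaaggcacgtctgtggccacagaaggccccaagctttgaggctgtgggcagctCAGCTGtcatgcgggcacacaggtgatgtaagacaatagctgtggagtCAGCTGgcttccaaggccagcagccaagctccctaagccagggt
Chrng: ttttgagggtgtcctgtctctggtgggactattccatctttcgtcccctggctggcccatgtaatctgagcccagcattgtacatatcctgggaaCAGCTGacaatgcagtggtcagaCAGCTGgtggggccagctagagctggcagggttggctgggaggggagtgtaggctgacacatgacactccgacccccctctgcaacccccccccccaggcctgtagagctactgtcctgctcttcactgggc
Tnnt2: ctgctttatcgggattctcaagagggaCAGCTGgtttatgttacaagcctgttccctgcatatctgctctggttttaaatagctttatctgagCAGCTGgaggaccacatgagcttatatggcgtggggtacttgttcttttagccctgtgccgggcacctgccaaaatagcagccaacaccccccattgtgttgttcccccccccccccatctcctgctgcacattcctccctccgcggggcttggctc
The matches began 92 and 44 bases before the start of Chrna1, 155 and 132 before that of Chrng, and 223 and 157 before that of Tnnt2. Over all 32851 promoter windows of the same length, 13% held CAGCTG and 1.26% held it at least 2 times. Counted by gene over any of its starts, 1.39% of 27025 genes held it at least 2 times. Mest, an imprinted gene, held it once, and the other 16 genes, Myl4, Myh3 and Chrnb1 among them, held none in this window. A match is a description of the letters and not evidence of binding.

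Growth and stretch genes of the same list followed. Igf2, the imprinted insulin-like growth factor of developing and regenerating muscle, read 9.75 and 8.72 in mdx and 5.76 and 6.17 in hDMD x mdx. The groups were well apart, while the wild-type mice read 5.69, just below the hDMD x mdx readings, and 8.30, just below the mdx readings. The difference was -3.27 ± 0.77 (SE, 9.62-fold, adjusted p = 0.491), the largest of the list, and -2.01 without the 15-week mdx mouse. Peg3, another imprinted gene, read 5.81 and 6.81 in mdx and 4.0 and 5.38 in hDMD x mdx, a difference of -1.62 ± 0.27, with 2 further probe sets at -1.60 ± 0.30 and -0.65 ± 0.40. Ankrd1, a titin-associated protein made on stretch and injury, read 5.69 and 6.13 in mdx and 4.27 and 4.31 in hDMD x mdx, with the latter both close to the floor, a difference of -1.62 ± 0.25 (SE, adjusted p = 0.306), and -1.02 without the 24-week hDMD x mdx mouse. Csrp3, the muscle LIM protein, differed by -1.15 ± 0.55 with overlapping groups.

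The factors that direct myogenesis were divided. Of 17 kept genes of the myogenic factor and growth control list, 9 were higher and 8 lower, with a median difference of 0.01. Myod1, which commits precursors to muscle, read 6.87 and 6.40 in mdx and 7.07 and 6.44 in hDMD x mdx, and the groups overlapped. Myog, which drives terminal differentiation, read 5.48 and 6.66 in mdx and 5.40 and 5.39 in hDMD x mdx, where the distance between the groups came from the bright mdx array, and the difference of -0.68 ± 0.43 turned to 0.068 without that mouse. Cdkn1a, the cell cycle inhibitor p21, differed by -1.80 ± 0.53, with -1.75 in the dim and -1.86 in the bright pair, although the 4 arrays overlapped (8.57 and 6.38 against 6.82 and 4.51). Mstn, myostatin, which restrains muscle growth, was higher with the human gene. It read 6.67 and 6.19 in mdx and 8.28 and 7.73 in hDMD x mdx, with the wild-type readings of 7.54 and 7.16 between the groups. The difference was 1.57 ± 0.23 (SE, 2.96-fold higher, adjusted p = 0.279), 1.60 in the dim and 1.53 in the bright pair. Myf6, the myogenic factor of mature fibres, was higher by 0.74 ± 0.25.

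Genes of macrophages and monocytes were lower with the human gene. Of 26 kept genes of 32 on the array, 25 were lower, 19 without overlap and 12 at an unadjusted p under 0.05, where 13% and 4.17% of all genes were. The median difference was -1.03, with -0.65 in the bright pair and -1.39 in the dim pair, and it was -0.47 without the 10-week hDMD x mdx mouse. The summed intensity of the list was 2224 and 1595 in mdx and 444 and 464 in hDMD x mdx. The wild-type mice read 1481 and 349, so the dim wild-type array was near the mdx level and the bright one below the hDMD x mdx level. In whole muscle, fewer cells of a type and less RNA per cell cannot be told apart.

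Lgals3, galectin-3, a lectin of activated macrophages, read 8.54 and 7.28 in mdx and 5.13 and 4.68 in hDMD x mdx. Every mdx reading exceeded every hDMD x mdx reading, and the difference was -3.01 ± 0.56 (SE, 8.05-fold, adjusted p = 0.426), -3.41 in the dim and -2.61 in the bright pair. Ctss, the protease cathepsin S of antigen-presenting cells, read 7.99 and 8.50 in mdx and 5.26 and 6.14 in hDMD x mdx, again without overlap, a difference of -2.54 ± 0.50. Mmp12, the macrophage elastase, read 6.54 and 6.34 in mdx and 4.30 and 4.0 in hDMD x mdx, at or near the floor in the latter, a difference of -2.28 ± 0.29 (SE, adjusted p = 0.239). Cd68, a lysosomal membrane protein of macrophages, read 7.27 and 6.21 in mdx and 4.94 and 4.79 in hDMD x mdx, a difference of -1.87 ± 0.40. Lyz2, lysozyme, differed by -1.91 ± 0.46 and Tyrobp, a signalling adaptor of myeloid receptors, by -1.98 ± 0.46. Some defining genes differed less, with the receptor Csf1r at -1.09 ± 0.47 and the scavenger receptor Mrc1 at -0.36 ± 0.35. Cx3cr1, the fractalkine receptor, overlapped between the groups (-0.08 ± 0.34).

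Other genes of innate immunity were lower in part. Of 27 genes of cathepsins and lysosomes, 25 were lower and 10 had an unadjusted p under 0.05 (4.17% of all genes), with a median of -0.64 that was -0.35 without the 10-week hDMD x mdx mouse. Lgmn, the protease legumain, led those not yet named at -1.63 ± 0.34. Of 12 complement genes, 9 were lower, and the C1q subunits C1qa, C1qb and C1qc differed by -0.95 ± 0.30, -1.77 ± 0.57 and -1.37 ± 0.53 without overlap. A second C1qb probe set overlapped at -0.28 ± 0.39, and without the 10-week hDMD x mdx mouse C1qb and C1qc differed by -0.96 and -0.72. Serping1, the C1 inhibitor, and Cfb, factor B, overlapped between the groups. The chemokine list was divided, with 4 of 10 kept genes lower and a median of 0.05. Ccl6, Ccl8 and Ccl9, which attract monocytes, differed by -2.54 ± 0.70, -1.82 ± 0.62 and -1.74 ± 0.58, and without the 10-week hDMD x mdx mouse by -1.43, -1.20 and -0.91. The 3 probe sets for Cxcl12, which guides haematopoietic and precursor cells, differed by 0.47 ± 0.26, 0.04 ± 0.31 and -0.27 ± 0.31. Of 16 antigen presentation genes, 15 were lower, 13 of them without overlap (13% of all genes). Only Ctss, which is also on the macrophage list, had an unadjusted p under 0.05 (4.17% of all genes). The median of -0.78 was -0.14 without the 10-week hDMD x mdx mouse and -1.47 without the 24-week one. H2-DMa, which loads peptides on class II molecules, read 5.47 and 5.22 in mdx and was at the floor in both hDMD x mdx arrays.

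Markers of lymphocytes had slightly higher values. All 11 kept genes of the T cell, B cell and NK cell list were higher in hDMD x mdx, by a median of 0.25, but only Ms4a1 (CD20, 0.88 ± 0.34) and Ighm did not overlap between the groups, where 14.3% of all genes were higher without overlap. A second probe set for Ms4a1 was lower, at -0.25 ± 0.82, with overlapping groups. Ighm encodes the heavy chain of IgM. One of its probe sets, not the one that stood for Ighm in the list, read 5.74 and 5.27 in mdx and 8.31 and 8.01 in hDMD x mdx. The difference of that probe set was 2.65 ± 0.43 (SE, 6.29-fold higher, adjusted p = 0.306), with wild-type readings of 7.90 and 5.93 between the groups. The other 3 kept probe sets for Ighm differed by 1.26 ± 0.55, 0.13 ± 0.25 and -0.44 ± 0.52. Neutrophil and mast cell genes were divided, 9 higher and 6 lower of 15. Endothelial and vessel wall genes had a median of -0.01, nerve and Schwann cell genes of -0.21, and adipocyte genes of 0.40, with 0.55 in the bright pair and 0.15 in the dim pair. The adipocyte median was -0.45 without the 24-week hDMD x mdx mouse and 1.20 without the 10-week one, so its direction rests on single mice. The part of these other cell types in the results was not tested.

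Matrix genes were lower as a group. Of 15 kept collagen genes, 14 were lower, 11 without overlap and 12 at an unadjusted p under 0.05, where 13% and 4.17% of all genes were, with a median difference of -1.08, -0.83 in the bright and -1.05 in the dim pair. Col1a1, the alpha 1 chain of type I collagen, read 9.66 and 9.38 in mdx and 8.17 and 7.76 in hDMD x mdx, a difference of -1.56 ± 0.24 (SE, adjusted p = 0.301). The wild-type arrays, at 9.81 and 9.69, were at the mdx level and above the hDMD x mdx level. Col1a2, the partner chain, read 9.70 and 9.22 in mdx and 8.47 and 7.61 in hDMD x mdx, with the wild-type at 10.34 and 9.35, and differed by -1.42 ± 0.25, while a second probe set overlapped at -0.13 ± 0.26. Col3a1, of type III collagen, read 8.28 and 7.85 in mdx and 7.21 and 5.89 in hDMD x mdx. The wild-type mice read 9.48, above both mdx readings, and 6.45, between the hDMD x mdx readings. The Col3a1 difference of -1.51 ± 0.58 was -2.41 without the 15-week and -0.63 without the 13-week mdx mouse, and the other 2 probe sets were lower without overlap. Over the list, summed intensities were 4143 and 3423 in mdx, 1898 and 1380 in hDMD x mdx and 5295 and 3055 in wild-type, so the lowest arrays were those of hDMD x mdx. Col12a1, of a collagen that decorates fibrils, was the member with the opposite sign, at 0.51 ± 0.31.

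Of 43 other matrix, protease and inhibitor genes, 32 were lower and 16 of these had an unadjusted p under 0.05 (4.17% of all genes). Timp1, an inhibitor of matrix metalloproteinases, read 8.66 and 7.53 in mdx and 6.10 and 5.30 in hDMD x mdx, with no overlap, a difference of -2.40 ± 0.31 (SE, 5.26-fold, adjusted p = 0.239). Postn, periostin of scar and developing matrix, read 6.58 and 7.06 in mdx and 4.82 and 4.89 in hDMD x mdx, a difference of -1.97 ± 0.41. Postn is also counted in the regeneration list, and Mmp12 in both this list and the macrophage list. Sparc, a collagen-binding protein, and Eln, elastin, each differed by -1.24 ± 0.24, and Lox, which cross-links collagen and elastin, by -1.34 ± 0.26. Second probe sets for Eln and Lox differed by -0.57 ± 0.26 and -0.45 ± 0.27.

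Genes of actin turnover and S100 calcium-binding proteins were also mostly lower, 20 of 25, with a median of -0.78 that was -0.45 without the 10-week hDMD x mdx mouse. Tmsb10, a thymosin that binds actin monomers, read 9.44 and 9.02 in mdx and 6.93 and 7.13 in hDMD x mdx, a difference of -2.20 ± 0.36 (SE, adjusted p = 0.306). S100a4, made by fibroblasts and leukocytes, read 7.99 and 7.03 in mdx and 6.01 and 5.35 in hDMD x mdx, with each dim array above its bright partner, a difference of -1.83 ± 0.24 (SE, adjusted p = 0.239). S100a6 and S100a10 differed by -0.96 ± 0.24 and -1.02 ± 0.27, with a second S100a10 probe set at -0.46 ± 0.32. S100a1, the form typical of striated muscle fibres, overlapped between the groups, at 0.05 ± 0.24.

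**Figure D2:**
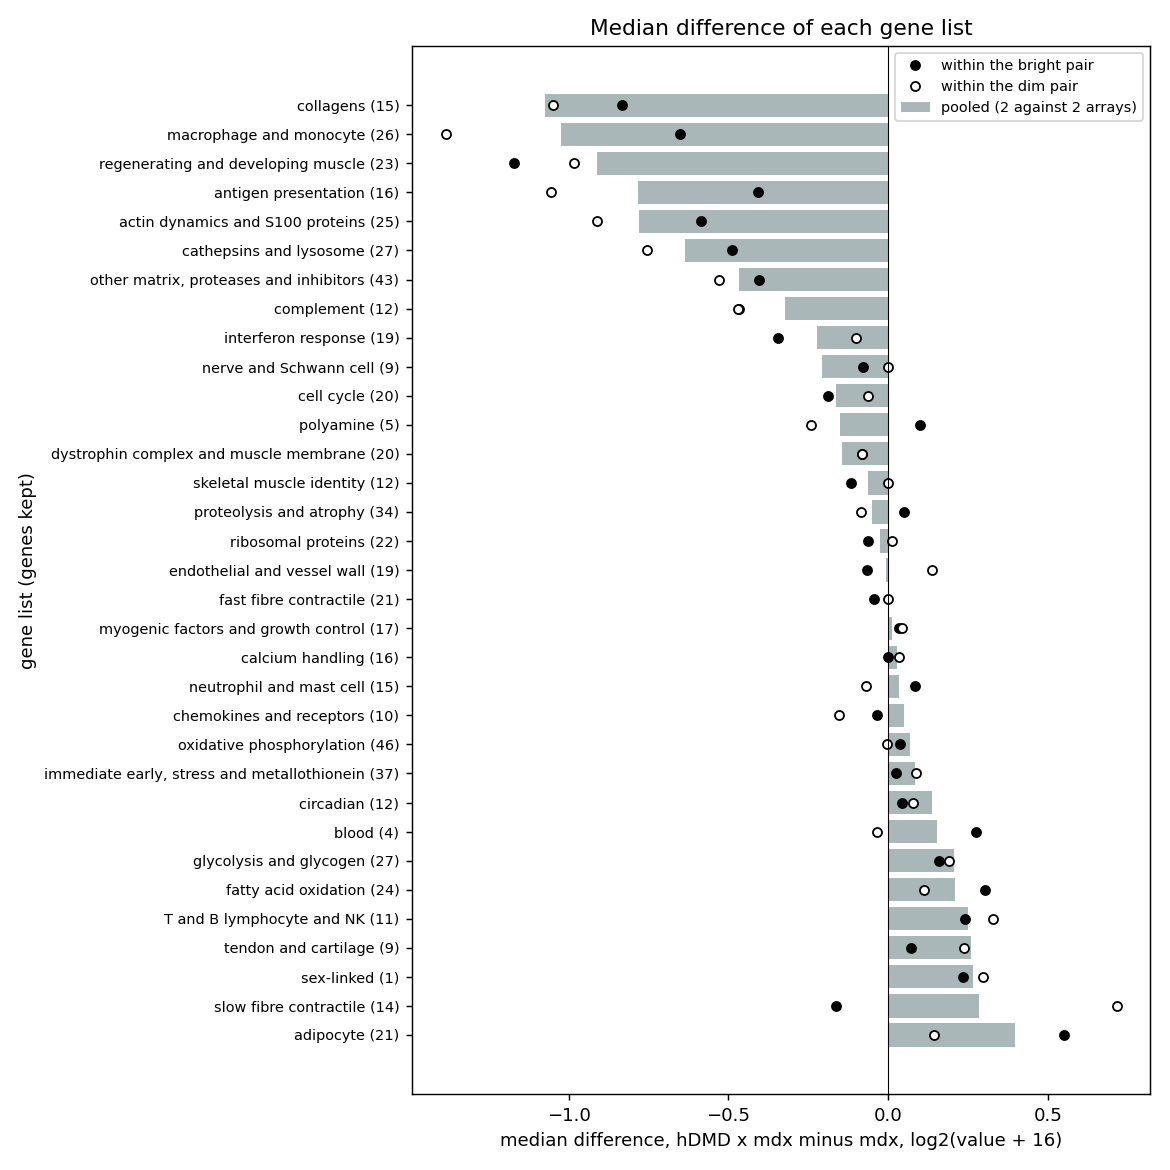
Median difference (horizontal axis, log2(value + 16), hDMD x mdx minus mdx) of 33 gene lists (vertical axis, kept genes in brackets), as bars for the 2 against 2 arrays, filled points for the bright pair and open points for the dim pair. Collagen, macrophage and regeneration genes lie farthest to the left, at -1.08, -1.03 and -0.91, with the points of both pairs on the same side, and slow fibre genes have points on opposite sides of 0, at -0.16 and 0.72.

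The metallothioneins, small proteins that bind zinc and copper, were lower within a stress list that was otherwise divided (21 higher and 16 lower of 37). Mt1 read 8.64 and 9.16 in mdx and 6.64 and 6.39 in hDMD x mdx, beside 6.88 and 6.72 in wild-type. Mt2 read 10.10 and 10.11 in mdx and 8.40 and 7.41 in hDMD x mdx, beside 8.65 and 8.04 in wild-type. For both genes the 2 mdx mice stood above all hDMD x mdx and wild-type mice, and the differences were -2.38 ± 0.29 (SE, adjusted p = 0.239) and -2.20 ± 0.31 (SE, adjusted p = 0.249). Cryab, the small heat shock protein alpha B-crystallin, differed by -1.43 ± 0.37, but unevenly, with -0.71 in the bright and -2.15 in the dim pair. Without utrophin Cryab went the other way, from 4.91 in the mdx x utrn-/- mouse to 6.72 in the hDMD x mdx x utrn-/- mouse. Agtrap, which binds the angiotensin receptor, and Emp3, a membrane protein, were among the 12 lower genes with the smallest p, at -1.57 ± 0.25 and -1.45 ± 0.24. However, a second probe set for Emp3, with a higher mean, differed by -0.12 ± 0.24 with overlapping groups.

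Fast fibre and oxidative phosphorylation genes had medians near 0, and most genes of sugar and fatty acid use read slightly higher in hDMD x mdx. Fast fibre genes had a median difference of 0.00 over 21 genes and none had an unadjusted p under 0.05. Slow fibre genes had a median of 0.29 that followed the pairs, -0.16 in the bright and 0.72 in the dim pair. Oxidative phosphorylation genes (46) had a median of 0.07. Of 27 genes of glycolysis and glycogen, 23 were higher, 9 of them without overlap and 4 at an unadjusted p under 0.05, where 14.3% and 3.19% of all genes were, and the median was 0.21. Phka1, a regulatory subunit of phosphorylase kinase in muscle, read 6.85 and 6.89 in mdx and 7.84 and 7.81 in hDMD x mdx, a difference of 0.95 ± 0.23 (SE, adjusted p = 0.491), with the wild-type between at 7.54 and 7.49. Slc2a4, the insulin-regulated glucose transporter GLUT4, read 8.27 and 8.38 in mdx and 9.06 and 9.36 in hDMD x mdx, without overlap, a difference of 0.88 ± 0.23. Fatty acid oxidation genes were higher in 21 of 24 cases, by a median of 0.21 that was 0.081 without the 24-week hDMD x mdx mouse, and none had an unadjusted p under 0.05. Mb, the oxygen store myoglobin, was higher by 0.80 ± 0.25.

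The remaining lists differed little or in part. Of 20 kept cell cycle genes, 13 were lower, with a median of -0.16, and 3 had an unadjusted p under 0.05 (4.17% of all genes), among them Ccnb2, a mitotic cyclin, and 1 of 2 probe sets for Mcm3, a subunit of the replicative helicase. Of 19 interferon response genes, 15 were lower, 3 of them at an unadjusted p under 0.05 (4.17% of all genes), and the median of -0.22 was -0.61 without the 15-week mdx mouse and 0.072 without the 13-week one. Ifitm3, an antiviral membrane protein, read 8.75 and 7.71 in mdx and 7.66 and 6.87 in hDMD x mdx, with the dim hDMD x mdx array just below the bright mdx array, a difference of -0.96 ± 0.24. Medians were -0.05 for proteolysis and atrophy genes (34), -0.02 for ribosomal proteins (22), 0.03 for calcium handling genes (16) and 0.14 for circadian genes (12). Of the 5 polyamine genes, 3 were lower, Sat1, which breaks polyamines down, among them, and 2 higher, Odc1, the first enzyme of polyamine synthesis, among them by 1.33 ± 0.32.

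Among single genes that were higher, Padi2, an enzyme that turns arginine into citrulline, read 5.99 and 6.02 in mdx and 8.12 and 7.67 in hDMD x mdx, a difference of 1.89 ± 0.45. Rxrg, a retinoid receptor of muscle, read 4.0 and 4.92 in mdx and 6.73 and 5.82 in hDMD x mdx, with 1 mdx array at the floor. Pla2g1b, a secreted phospholipase, read 4.0, the floor, in mdx on both arrays, and 6.52 and 5.64 in hDMD x mdx, so no fold is given. Sars, the seryl-tRNA synthetase, read 5.27 and 4.31 in mdx and 6.97 and 6.13 in hDMD x mdx, a difference of 1.76 ± 0.25. Zfp358, St3gal5, Vps72, St3gal3, Jak2 and Tmem185a, the rest of the 12 higher genes with the smallest p, differed by 1.04 to 1.34.

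The genes of the dystrophin complex and the muscle membrane were mostly close between the groups. Of 20 kept genes, 12 were lower and 8 higher, with a median of -0.15. Only Itga7 had an unadjusted p under 0.05, 5% of the list, near the 4.17% of all genes that were lower at that p. Itga7, a laminin receptor of muscle, read 5.99 and 7.43 in mdx and 4.0 and 6.27 in hDMD x mdx, overlapping over the 4 arrays but lower within each pair, a difference of -1.57 ± 0.28, and its second probe set differed by -0.68 ± 0.35. The mouse Dmd probe set read 4.44 and 4.46 in mdx and 4.55 and 4.38 in hDMD x mdx, close to the floor in every array, and where its probes lie relative to the mutation and how they match the human transcript is not stated in the labels or files, so it checks no label. Utrn, utrophin, read 5.93 and 4.15 in mdx and 6.16 and 4.33 in hDMD x mdx, so its level went with the brightness of the array and the difference was 0.20 ± 0.33. The same probe set read 5.64 in the mdx x utrn-/- mouse and 5.28 in the hDMD x mdx x utrn-/- mouse. These readings lie within the range of the mice with utrophin, so this probe set checks no label either. A second Utrn probe set, near the floor, differed by 0.0059 ± 0.24. Sgca, alpha-sarcoglycan of the complex, differed by 0.05 ± 0.30 and Dag1, dystroglycan, by 0.01 ± 0.32.

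**Figure D3:**
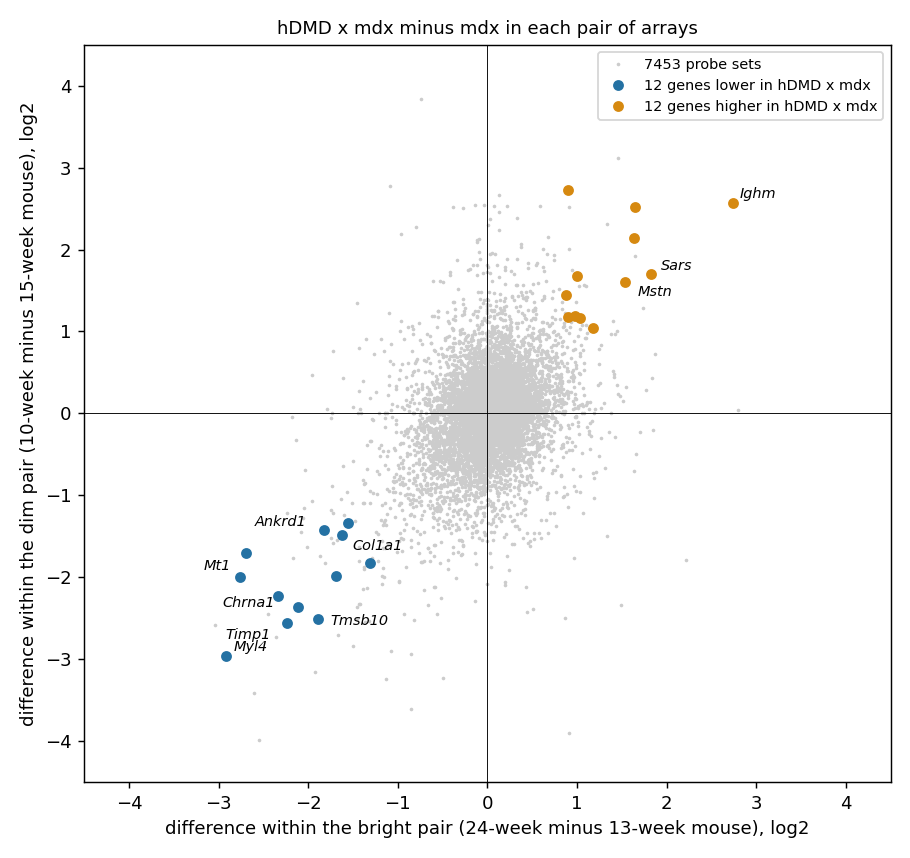
Difference hDMD x mdx minus mdx (log2) within the bright pair (horizontal axis) and within the dim pair (vertical axis) for 7453 probe sets (grey), with the 12 lower (blue) and 12 higher (orange) genes of smallest p that did not overlap and had the same sign in both pairs. The blue and orange points lie to the lower left and the upper right because the choice required it, and Myl4, at -2.92 and -2.96, is the blue point nearest to the lower left corner.

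The mdx x utrn-/- and hDMD x mdx x utrn-/- mice give the same contrast without utrophin on arrays other than the 4 compared. There was 1 mouse of each, of 5 and 9 weeks and both on dim arrays, so the pair has no spread of its own and its values are described without a test. All 12 of the lower genes named by smallest p were lower there too on their named probe set, 9 of them at least 2-fold, with a median of -1.85, where 49.2% of all probe sets were lower and 10.1% at least 2-fold lower. Other kept probe sets for Mmp12, Emp3 and Col1a1 went the other way in that pair, at 0.78, 0.51 and 0.79. The other Myl4 probe set was lower there as well, at -1.70. Of the 12 higher genes, 9 were higher, 5 at least 2-fold, where 50.2% and 8.17% of all probe sets were. A limma fit that assumes these single mice to vary like the other genotypes set the contrasts with and without utrophin against each other, and 2 probe sets passed (0.0268%), for S100a8 and Aldoart2, with 11.3% at an unadjusted p under 0.05. Both rest on the reading of the single mdx x utrn-/- mouse and show nothing about mice of that genotype in general. Of the 311 probe sets that were lower at an unadjusted p under 0.05, 75.2% were lower in the pair without utrophin, and of the 232 higher ones, 63.4% were higher.

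Single genes showed the range. Myl4 read 8.26 in the mdx x utrn-/- mouse and 4.90 in the hDMD x mdx x utrn-/- mouse, Myh3 read 7.16 and 4.40, and Chrna1 read 6.79 and 4.82, in each case on the same side as with utrophin. Mt1 read 9.02 and 4.0, and Igf2 read 10.73 and 4.0, with the second reading at the floor. Mstn read 6.13 and 7.73, so it was higher with the human gene here as well. Sars read 6.90 and 4.82, the opposite direction to the arrays with utrophin. Timp1 read 7.43 and 6.99 and Col1a1 read 9.26 and 8.63, differences of -0.44 and -0.63 beside -2.40 and -1.56 with utrophin. A second Col1a1 probe set, at -1.12 ± 0.42 with utrophin, went the other way here, with readings of 7.43 and 8.22 (0.79). By list, 18 of 23 regeneration genes were lower (median -0.82), 19 of 26 macrophage genes (median -0.58) and 11 of 15 collagen genes (median -0.37). Over all 5666 genes, 2765 were lower and the median was 0.01. Col3a1 was among the collagen genes that went the other way, at 0.24, with its other probe sets at 0.52 and 0.85.

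**Figure D4:**
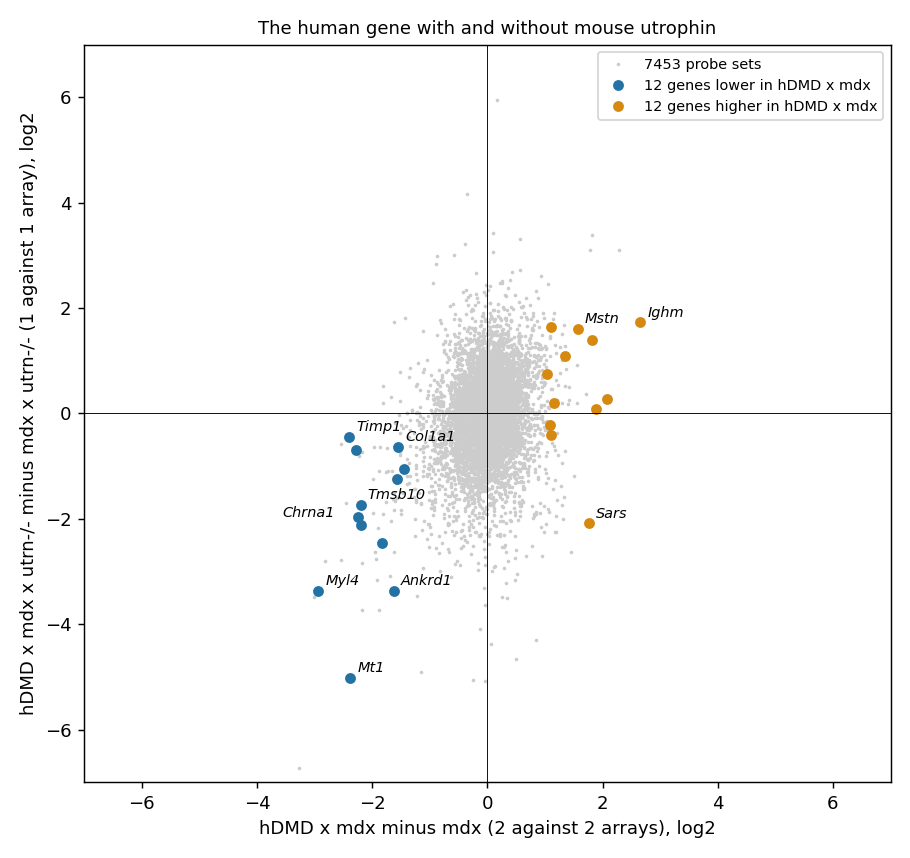
Difference with utrophin intact, hDMD x mdx minus mdx (horizontal axis, log2, 2 against 2 arrays), against the difference without utrophin, hDMD x mdx x utrn-/- minus mdx x utrn-/- (vertical axis, log2, 1 against 1 array), for 7453 probe sets (grey) and the 12 lower (blue) and 12 higher (orange) genes of smallest p. All 12 blue points lie below 0 on the vertical axis, and 3 of the orange points do, with Sars the lowest of them.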

How the data were processed

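The deposited files hold 1 intensity per probe set and array on a linear scale, with 19.4% to 29.9% of values at or below 0. The authors extracted total RNA with Trizol and RNeasy and labelled cRNA with biotin, per the labels' protocols. For the software, the expression measure and any scaling, the entry is not given in the sources used here. Intensities were quantile normalised over 9 arrays, set to 0 where negative and taken as log2(value + 16). Control probe sets (66 of 12488) were left out, and 7453 probe sets above the 40th percentile of the mean were kept. Symbols came from the platform annotation: 10833 probe sets had 1 symbol, 396 several and 1193 none. In the lists, the probe set with the highest mean stood for a gene. Genes named by smallest p took their probe set of smallest p with groups apart and both pairs alike. For Myl4, Emp3 and Ighm this was not the probe set with the highest mean.

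Differences were tested two-sided with limma 3.58.1 (R 4.3.3), fitting a mean for each genotype and brightness (from the hybridisation controls) as a block, on 2 residual degrees of freedom, with Benjamini-Hochberg adjustment over 7453 probe sets. Only the model fit was tested on simulated data, which had no floor. Normalisation, the filter, the list medians and the naming of genes were not tested in this way. A gene was named if it was among the 12 smallest p-values per direction with groups apart and both pairs alike, among up to 3 such genes of a list at an unadjusted p under 0.05, or on a fixed list. Other members were named as examples after their values were seen, as was Aldoart2. Members and lists were chosen with earlier results of these data known. Each array is a separate mouse. Some genes are on more than 1 list, so the counts of the lists are not separate. Lists were described without a set test.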

Additional observations from a re-analysis of the deposited data

Results flagged for a closer look

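For 2 probe sets of 7453 (0.0268%) the difference between hDMD x mdx x utrn-/- and mdx x utrn-/- was set apart from that between hDMD x mdx and mdx by a limma fit over all 9 arrays, with 843 (11.3%) at an unadjusted p under 0.05. The pair without utrophin is 1 mouse against 1, of 9 and 5 weeks, with no spread of its own and assumed to vary like the other genotypes, and the comparison was chosen after the data were seen. Both results rest on the single mdx x utrn-/- array, so they describe that array and do not show that the effect of the human gene differs between the backgrounds.

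S100a8, a calcium-binding protein of neutrophils, read 4.20 and 4.19 in mdx and 4.04 and 4.27 in hDMD x mdx, near the floor in all 4 arrays, and 5.59 and 5.74 in wild-type. It read 9.08 in the mdx x utrn-/- mouse and 4.0, the floor, in the hDMD x mdx x utrn-/- mouse. The contrasts differed by 5.05 ± 0.41 (SE, adjusted p = 0.0485). It was not alone in that pair, where 11 of the 15 kept neutrophil and mast cell genes were lower in the hDMD x mdx x utrn-/- mouse. Their median was -1.78, and 49.2% of all probe sets were lower there. Lcn2, lipocalin 2 of neutrophil granules, read 7.07 and 4.51. The filter used the mean of all 9 arrays, so genes high only in the mdx x utrn-/- mouse could pass it through that array.

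Aldoart2, an aldolase gene that resembles other aldolase genes in sequence, read 9.36 and 8.43 in mdx and 9.71 and 8.42 in hDMD x mdx. Whether the probe set reads RNA of Aldoart2 alone was not tested. Aldoart2 read 9.27 and 8.26 in wild-type and 9.57 in the hDMD mouse. It was at the floor of 4.0 in the mdx x utrn-/- mouse and read 9.94 in the hDMD x mdx x utrn-/- mouse. The contrasts differed by -5.77 ± 0.42 (SE, adjusted p = 0.0485).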

How the results depend on the processing

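The 0 calls became 9 on the 4 compared arrays with the block and 1 with the deposited intensities, and ranged from 0 to 10 when each of the 6 mdx, hDMD x mdx and wild-type mice was left out in turn. The 543 probe sets at an unadjusted p under 0.05 became 215 without the block, 838 on 4 arrays with it, 229 on 4 arrays without it, 152 with deposited intensities, 836 with 4 arrays normalised by themselves, 951 without the filter and 212 with age in place of the block (chosen after seeing the data), and 187 to 855 with a mouse left out. The cause was not tested.

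The regeneration median of -0.91 was -0.38 with deposited intensities, -1.40 and -0.66 with pseudocounts of 1 and 64, -1.17 in the bright pair and -1.31 to -0.69 with a mouse left out. The macrophage median of -1.03 was -0.41 with deposited intensities, -1.27 with 4 arrays normalised by themselves, -1.76 at the 60th percentile filter (10 genes), -2.06 and -0.39 with pseudocounts of 1 and 64, -0.65 and -1.39 in the bright and dim pairs and -1.15 to -0.47 with a mouse left out. The collagen median of -1.08 was -0.45 with deposited intensities, -0.71 with a pseudocount of 64, -0.83 in the bright pair and -1.10 to -0.84 with a mouse left out. Of 32 list medians that were not 0, 28 moved by over 1.5 times with a mouse left out and 18 changed sign; those of regeneration, collagen, other matrix and glycolysis genes did neither. Of the 73 named probe sets, 31 moved by over 1.5 times, 19 of them without hDMD x mdx 2. Of 1375 alternative values of these probe sets, 11 changed sign, in 5 genes. Dmd went to -0.010 with 75th percentile scaling and ranged from -0.20 to 0.15 with a mouse left out. With a mouse left out Utrn ranged from -0.076 to 0.47, Sgca from -0.25 to 0.35, Myog from -1.46 to 0.068 and S100a8 from -0.13 to 0.066, and S100a8 went to 0.26 with deposited intensities.

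The labels pair no mice, and the only pairing used was by array brightness. With 2 mice per group that differ in age and array brightness, the number of arrays limits the precision, and 2.78% of the kept values of the compared arrays lay at the floor.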
